A study of Mus musculus with 8 samples.

Results

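The 7359 regions described here were intergenic sites at which C/EBPα was called in every library of the series and which lay close to, but not at, a protein-coding gene. They were found by merging the peaks of 6 anti-C/EBPα lists that overlapped by at least 1 bp, which gave 259446 regions, and by keeping autosomal regions with a peak in all 6 lists whose midpoint lay outside every protein-coding gene, over 1 kb and at most 100 kb from the nearest gene end (mm10, RefSeq genes). They made up 2.84% of all merged regions and 32.0% of the 23028 autosomal regions called in all 6 libraries. The members were thus chosen by measured values, the peak calls of all 6 libraries, so their presence in each library and their strength relative to regions with fewer calls are descriptions and not findings.

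C/EBPα is a basic leucine zipper transcription factor that directs progenitors into the granulocyte and monocyte lineages and that also binds in progenitors that still have dendritic cell potential. It binds DNA as a dimer, with itself, with other C/EBP proteins or with bZIP proteins such as ATF4, and it often occupies enhancers together with PU.1, RUNX1 and AP-1 factors. Most enhancers lie away from promoters and can act on a gene other than the nearest one, so the nearest gene named for a region below gives a position and not a target.

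The data came from CUT&RUN, in which an antibody directs a nuclease to the bound protein and the released DNA fragments are sequenced. The cells were Lin- KIThi-int FLT3+ progenitors sorted out of mouse bone marrow, with 3 genotypes at a far upstream enhancer of Zeb2, a zinc-finger repressor gene in dendritic and myeloid fate choice. The DC group (2 libraries) and the DE group (2 libraries) carried the variants that go by those names in the labels, which give no further description of either allele, and the WT group (2 libraries) carried the unaltered enhancer. Each genotype had 1 library in each of 2 batches, and values below are given for batch 1 and then batch 2. The same 3 µL of antibody, 30 min of digestion and 14 PCR cycles were used for all 6 anti-C/EBPα libraries. The labels name no age, sex or strain and do not say whether libraries of a genotype came from separate animals, so p-values measure only the spread between these libraries. The fit behind them (limma) takes that spread largely from all tested regions together. A small p for a region therefore does not rest on that region's own libraries alone. The 2 IgG libraries, both from WT cells, were not analysed here.

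The lists held 169943 and 50221 peaks in DC, 52474 and 57441 in DE and 82080 and 56940 in WT libraries. Read totals were not in the lists, so depth is unknown. The summit pileup, which is the number of fragments over the highest point of a peak, was solved as a whole number from the fold and p-value of each peak, for at least 99.986% of the peaks of a list. Peaks inside members were 4.60% of the list in the DC library of batch 1 and 9.53 to 15.5% in the other 5, with the lowest share being that of the longest list. Of the regions of the same position class that missed a single library, which numbered 2418, 746 lacked a call in the DC library of batch 2 and 35 lacked one in the DC library of batch 1.

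The letters under the summits could be read where a member lay over the annotated start of a noncoding gene, because the RefSeq promoter table (GRCm38.p6) gives 250 bases before and 50 after each start. In 99 such windows, holding 93 members, all 6 summits fell inside the window. The motif TTGCNNAA, the core of the C/EBP binding site searched on both strands, stood in 34 of the 99 windows, or 34.3%. Some windows of a gene overlap and repeat a match, and counted by member it was 29 of the 93, or 31.2%. It stood in 10.8% of all 32851 windows of the same 300 bp, in 12.0% of the windows of noncoding genes, in 12.7% of those under gene-end regions called in all 6 libraries, and in 15.2% of 224 windows under regions of the members' position class that only 1 library called. Shown here are 4 windows with strong members, to let the motif be seen in its surroundings; capitals mark the match, and each is printed 5′ to 3′ on the strand of the noncoding gene.
Ptgs2os2, near Ptgs2 (chr1:150164899-150165198, minus strand): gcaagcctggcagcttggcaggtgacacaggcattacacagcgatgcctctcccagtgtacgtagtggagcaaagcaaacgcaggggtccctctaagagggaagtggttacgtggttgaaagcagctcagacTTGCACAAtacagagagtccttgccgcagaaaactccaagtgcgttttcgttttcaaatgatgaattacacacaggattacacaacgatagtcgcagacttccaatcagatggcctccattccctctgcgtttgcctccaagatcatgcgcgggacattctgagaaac
Gm42190, near Cp (chr3:19953905-19954204, minus strand): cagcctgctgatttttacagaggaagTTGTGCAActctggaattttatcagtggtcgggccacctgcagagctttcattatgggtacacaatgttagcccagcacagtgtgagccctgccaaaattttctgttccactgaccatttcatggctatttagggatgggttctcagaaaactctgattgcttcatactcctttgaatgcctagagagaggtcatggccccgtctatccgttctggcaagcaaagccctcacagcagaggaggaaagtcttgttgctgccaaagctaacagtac
Gm34434, near Hs2st1 (chr3:144381099-144381398, minus strand): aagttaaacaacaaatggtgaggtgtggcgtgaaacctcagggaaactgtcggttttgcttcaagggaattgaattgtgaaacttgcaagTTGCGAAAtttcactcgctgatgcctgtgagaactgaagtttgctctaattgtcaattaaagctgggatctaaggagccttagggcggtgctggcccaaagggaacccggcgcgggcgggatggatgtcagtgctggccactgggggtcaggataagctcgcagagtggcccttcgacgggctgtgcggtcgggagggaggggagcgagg
Gm19619, near Btc (chr5:91283027-91283326, minus strand): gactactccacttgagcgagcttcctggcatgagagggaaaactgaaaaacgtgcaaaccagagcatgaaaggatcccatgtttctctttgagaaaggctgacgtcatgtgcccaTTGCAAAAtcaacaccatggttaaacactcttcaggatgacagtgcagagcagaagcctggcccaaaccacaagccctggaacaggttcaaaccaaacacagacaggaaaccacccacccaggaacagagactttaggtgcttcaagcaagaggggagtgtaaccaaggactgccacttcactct

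In the Gm42190 window the match lies on the other strand, so the printed letters are its reverse complement. The Ptgs2os2 window, at the start of an antisense transcript 56.8 kb from the prostaglandin synthase gene Ptgs2, had summit folds of 133 and 94.3 in DC, 75.3 and 131 in DE and 85.9 and 58.8 in WT libraries, with the match 7.5 bp from the median summit. In the Gm34434 and Gm19619 windows the match lay 6 and 20.5 bp from the summit, whereas in the Gm42190 window it lay 77.5 bp away.

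With each match counted once, the 99 windows held 30 distinct matches, and 20 of them, or 66.7%, lay within 50 bp of the median summit, a stretch that held 33.4% of the positions a match could take. The median distance between match and summit was 25.5 bp. An AP-1 motif (TGANTCA, both strands) stood in 16.2% of the member windows and 7.81% of all windows, an ETS motif (GAGGAA, like those below searched on both strands) in 41.4% and 28.3%, and a RUNX motif (TGTGGT) in 25.3% and 16.8%. ETS and RUNX letters were about as common under the regions called in a single library, at 41.1% and 22.8%. The GATA letters AGATAA stood in 9.09% of the member windows, against 11.2% of all windows, and the E-box CAGCTG in 16.2%, against 16.3%. These windows all lie at starts of noncoding genes and cannot stand for the other members, whose letters were not at hand.

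**Figure D1:**
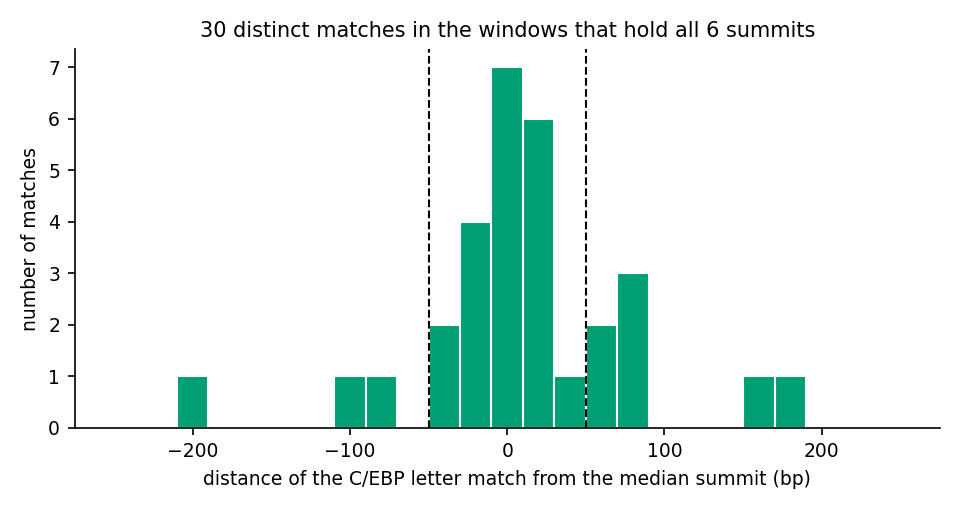
Number of distinct matches to the C/EBP letters by distance from the median of the 6 summits (bp), in the 99 promoter windows that hold all 6 summits of a member. The dashed lines stand at 50 bp on either side; 20 of the 30 matches fall between them.

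Members were dense near genes and thinned out with distance. Per Mb of intergenic sequence there were 18.6 members at 1 to 2 kb from a gene end, 14.7 at 2 to 5 kb, 13.0 at 5 to 10 kb, 11.4 at 10 to 20 kb, 8.69 at 20 to 50 kb and 5.61 at 50 to 100 kb, against 9.998 over the whole span. The median member lay 14.1 kb from the nearest gene end and was 422 bp wide. Regions called in any library thinned out less, to 85.9 per Mb at 50 to 100 kb against 159.5 at 1 to 2 kb, and the share of them that all 6 libraries called was 6.53% in the farthest bin and 11.7% in the nearest. The summit fold changed little with distance: its median over members was 13.2 at 1 to 2 kb and 14.5 at 50 to 100 kb.

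Regions on either side of the distance limits varied in strength. Just inside the limit of 1 kb lay members at 1.003 kb from Muc13 and 1.008 kb from Ripor1, with median folds over the libraries of 13.6 and 8.91; just outside it lay regions at 0.999 kb from Bcr and from Msgn1 and 0.997 kb from Gabbr1, with 7.86, 18.3 and 57.7. Just inside 100 kb lay members at 99.957 kb from L3mbtl4, 99.922 kb from Thbs1 and 99.864 kb from Gm525, with 15.3, 22.8 and 34.0; just outside it lay regions at 100.18 kb from 1700016C15Rik, 100.26 kb from Smim20 and 100.276 kb from 3110040M04Rik, with 9.33, 14.4 and 10.4.

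Where the promoter table gave the strand of the nearest gene, 3468 members lay upstream of it and 2267 downstream; for 1624 the table had no strand. Upstream sequence held 11.2 members per Mb and downstream sequence 8.62. The gap was widest next to the gene, with 22.8 members per Mb upstream and 13.1 downstream at 1 to 2 kb, and narrow at 50 to 100 kb, with 6.24 and 4.96. The midpoint lay inside an annotated long noncoding RNA gene for 1415 members (19.2%) and for 15.7% of the other regions of the position class.

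**Figure D2:**
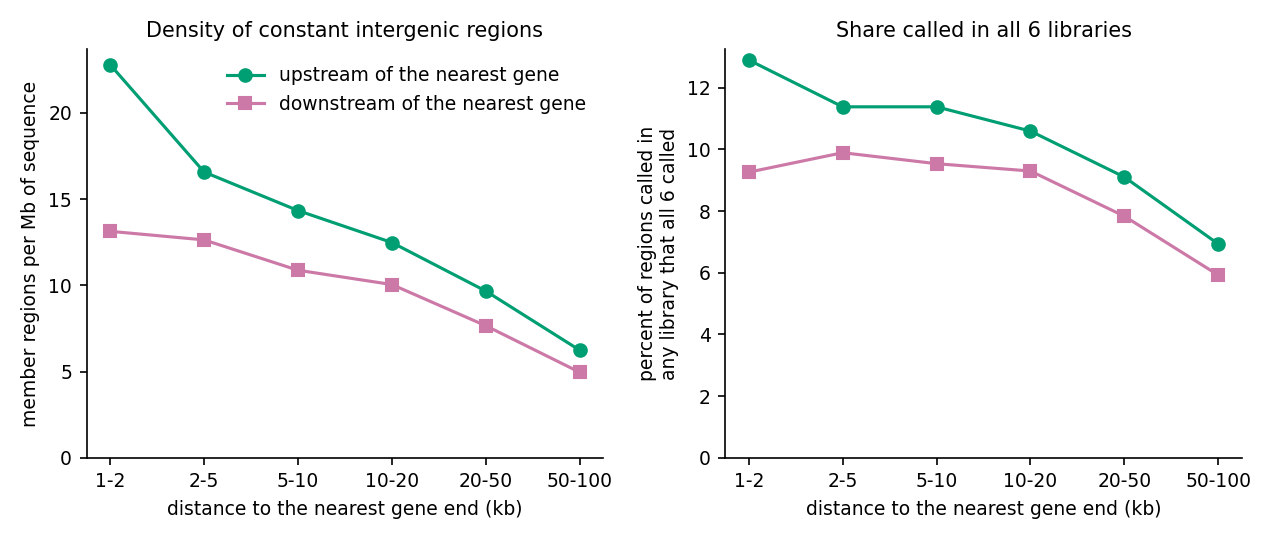
Left, member regions per Mb of intergenic sequence by distance to the nearest gene end (kb), for sequence upstream and downstream of the nearest gene. Right, percent of the regions called in any library that were called in all 6, over the same bins. Upstream lies above downstream in every bin of the left panel, with 22.8 against 13.1 members per Mb at 1 to 2 kb and 6.24 against 4.96 at 50 to 100 kb.

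Against the other regions called in all 6 libraries, members had the higher summit fold than gene-end regions (within 1 kb of a gene end) in 6 of 6 libraries. The median fold of members was 22.3 and 12.4 in DC, 13.4 and 16.2 in DE and 12.1 and 10.9 in WT libraries; that of gene-end regions was 17.3 and 10.9 in DC, 10.8 and 12.8 in DE and 9.43 and 9.37 in WT libraries. The difference in log2 median fold was 0.30 ± 0.07 (SD over 6 libraries). The pileup gave another order: members had the lower median pileup in 4 of 6 libraries. The mean difference in log2 median pileup, members minus gene end, was -0.25 ± 0.32 (SD over all 6 libraries). The batches differed in this. In batch 1 the medians of members and gene-end regions were 59 and 57 in DC, 43 and 44 in DE and 35 and 33 in WT. In batch 2 they were 22 and 31, 30 and 40, and 32 and 51. The local background in the peaks differed between the classes, and more so in batch 2. In the DC library of batch 2 it was 1.76 times the library's floor at the median member and 4.40 times at the median gene-end region. In the DC library of batch 1 it was 1.09 and 1.73 times the floor. Intragenic regions (median fold 21.8 and 12.2 in DC, 13.0 and 15.6 in DE, 12.0 and 10.5 in WT libraries) lay close to members in every library, with a difference of 0.04 ± 0.02 in log2 fold.

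The batches differed in the same feature. In the limma fit with genotype and batch, the gene-end regions called in all 6 libraries held 1628 (30.3%) with a higher scaled pileup in batch 2 and 122 (2.27%) with a lower one at an adjusted p under 0.05. Among members 235 (3.19%) were higher in batch 2 and 561 (7.62%) lower, where the shares over all 23480 regions tested were 9.71% and 6.89%. Both members below were chosen as among the most variable, so their spread is a description. The region 10.3 kb upstream of Slc38a2, a neutral amino acid transporter (chr15:96709576-96710506), had scaled pileups of 54.4 and 178 in DC, 64.4 and 165.35 in DE and 47.4 and 172 in WT libraries. The region 1.72 kb upstream of Tle3, a Groucho family corepressor (chr9:61370343-61370863), had 41.4 and 163 in DC, 74.4 and 160 in DE and 40.4 and 155 in WT libraries. In both, all 3 libraries of batch 2 lay above all 3 of batch 1. Within a batch the genotypes lay close together, except at Tle3 in batch 1. There the DE library, at 74.4, lay above DC at 41.4 and WT at 40.4.

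Within most members the libraries placed their summits close together. The 6 summits of the median member spanned 66 bp, and in 73.8% of members they spanned at most 100 bp. The other classes called in all 6 libraries were alike, with median spans of 66 bp in intragenic, 67 bp in gene-desert and 72 bp in gene-end regions. The scaled pileup differed between libraries of the same genotype by a median of 0.33 to 0.44 on the log2 scale over members, and between genotypes within a batch by 0.33 to 0.41, so that at the median member genotypes were no farther apart than batches. The least variable members, among those with a pileup of at least 20 in every library, included a region 32.0 kb upstream of Gadd45a, a stress-response gene (chr6:67069193-67069701), with scaled pileups of 170 and 159 in DC, 158 and 146 in DE and 151 and 150 in WT libraries. A region 82.1 kb from Zfp36l2, an mRNA decay factor, had 42.6 and 38.3 in DC, 41.0 and 43.0 in DE and 42.4 and 43.1 in WT libraries.

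The 10 members with the best worst rank by summit fold lay next to genes of many functions. They were Svil (an actin-binding protein), Ntpcr, Arhgap12 (a GTPase-activating protein), Fam83a, Plpp3 (a lipid phosphatase), Azin1 (an antizyme inhibitor of polyamine synthesis), Fabp5 (a fatty acid-binding protein), Cnot11 (a subunit of the CCR4-NOT deadenylase), Rflnb (a filamin regulator) and Itch (a ubiquitin ligase). The Svil region, 14.9 kb from the gene, had summit folds of 251 and 126 in DC, 171 and 175 in DE and 139 and 135 in WT libraries. The Plpp3 region, 31.0 kb downstream (chr4:105263513-105264073), had 172 and 127 in DC, 138 and 188 in DE and 95.6 and 109 in WT libraries. The order of the 6 libraries by fold differed between these members, and none of the 10 passed the test between genotypes in any comparison.

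Members were spread over 3903 nearest genes, which is 18.9% of the 20665 autosomal protein-coding genes, and 2260 of these genes had a single member. At the other end, Tnfaip3, which encodes the NF-κB inhibitor A20, and Tomm20, a mitochondrial import receptor, were nearest to 13 each. Fos, the AP-1 subunit, Irf2bp2, a corepressor partner of IRF2, Rybp, a Polycomb component, the zinc-finger gene Zfp217 and Zfp36l2 had 12 each, and Ly86, which encodes the lymphocyte antigen MD-1, had 11. The 13 members around Tnfaip3 lay 18.4 to 93.1 kb from the gene, with median folds between 5.54 and 85.3. The strongest of them, 38.3 kb upstream (chr10:19053494-19054012), had folds of 208 and 27.4 in DC, 133 and 37.5 in DE and 137 and 10.5 in WT libraries, so that each genotype's batch 1 library lay above its batch 2 library. The 12 around Fos lay 1.67 to 55.98 kb away, and the strongest, 4.98 kb upstream (chr12:85468413-85469404), had scaled pileups of 270 and 227 in DC, 377 and 280 in DE and 267 and 271 in WT libraries.

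Gene lists of blood cell types differed in how many of their genes were the nearest gene of a member, beside the 18.9% over all genes. Of the neutrophil and monocyte genes 26 of 34 had one, of the AP-1 and ATF genes 18 of 22, of the chemokine and cytokine receptor genes 18 of 26, of the chemokine and cytokine genes 19 of 28 and of the stem and progenitor genes 15 of 25. The dendritic lists were lower, with 7 of 15 for cDC1 (conventional dendritic cells specialised in cross-presentation), 6 of 14 for pDC, the interferon-producing plasmacytoid cells, and 5 of 15 for cDC2. Lists of other lineages had 4 of 12 for mast cells, basophils and eosinophils, the same share as cDC2, 4 of 15 for B lymphoid, 3 of 13 for erythroid and megakaryocyte, 3 of 15 for T and NK and 3 of 13 for housekeeping genes. Of 20 non-haematopoietic genes 1 had a member, the neuronal factor Neurod1. These lists were chosen with results of the series known, some share genes, and no test was made on them.

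Genes differ in how much intergenic sequence is nearest to them, and the density per Mb of that sequence gives the lists on a common scale. It was 45.7 members per Mb for neutrophil and monocyte genes, 43.2 for AP-1 and ATF genes, 52.3 for chemokine and cytokine genes and 39.6 for their receptors, against 9.998 over all genes. It was 27.9 for cDC1, 22.9 for mast cells, basophils and eosinophils, 21.2 for cDC2, 18.9 for stem and progenitor, 11.3 for pDC, 9.62 for B lymphoid, 9.39 for erythroid and megakaryocyte, 8.68 for T and NK and 1.11 for non-haematopoietic genes. The housekeeping list had 53.4, from 8 members in little usable sequence. One of them, 13.0 kb from Actb, the β-actin gene, had scaled pileups of 179 and 210 in DC, 170 and 156 in DE and 169 and 194 in WT libraries.

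**Figure D3:**
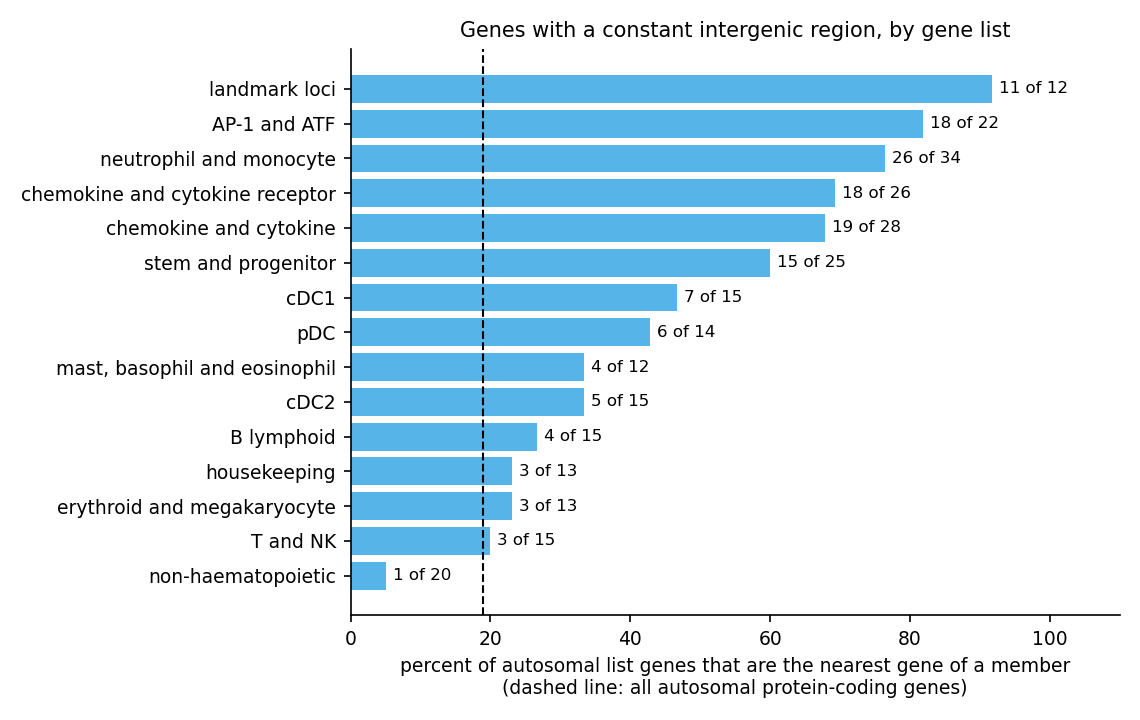
Percent of the autosomal genes of each list that are the nearest gene of at least 1 member, with the numbers beside the bars; the dashed line is the 18.9% of all autosomal protein-coding genes. The landmark, AP-1 and ATF, and neutrophil and monocyte lists lie at the top and the non-haematopoietic list, with 1 of 20, lies below the line.

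Of the 12 landmark genes of myeloid and dendritic fate, 11 were nearest to at least 1 member; Csf1r, the M-CSF receptor gene, was not. Cebpb, the emergency granulopoiesis C/EBP, had 9, Id2, an inhibitor of E proteins, 6, Gfi1, a granulocyte repressor, 5, Batf3, the cDC1 bZIP factor, 4, Cebpe, the C/EBP of late granulocytes, and Irf8, the monocyte and cDC1 factor, 3 each. Csf3r, the G-CSF receptor gene, Zeb2 and Nfil3, a bZIP repressor, had 2 each, and Cebpa and Spi1, which encodes PU.1, had 1 each. The Cebpb member with the highest median summit fold (86.4), 69.8 kb downstream (chr2:167759862-167760571), had scaled pileups of 347 and 232 in DC, 324 and 254 in DE and 420 and 295 in WT libraries. The WT libraries were highest in each batch, and the difference passed no test (limma, adjusted p = 0.43 for DC and 0.58 for DE). Another Cebpb member, 63.7 kb away, had higher scaled pileups in every library, with 518 and 414 in DC, 600 and 353 in DE and 652 and 533 in WT libraries.

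The members nearest to Zeb2 lay on the far side of the gene from the altered enhancer, 1.69 and 6.86 kb past its 3′ end. The first (chr2:44981639-44982009) had scaled pileups of 34.6 and 47.5 in DC, 45.2 and 44.2 in DE and 45.4 and 48.3 in WT libraries. WT was highest within each batch, and both DE libraries lay just below both WT libraries. No difference passed the test, with log2 differences of -0.21 for DC against WT (SE 0.31, adjusted p = 0.81) and -0.07 for DE against WT (adjusted p = 0.97, limma). The enhancer itself lies more than 100 kb from the gene end and is outside the members' limits.

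Members stood at some known distal elements of the landmark genes, which were looked up after their values were seen. Only elements that held a member are named here. The upstream Irf8 element, 50.1 kb before the start of Irf8, was a member that counts under the neighbouring gene Cox4i1, with a median fold of 97.3 over the 6 libraries. The element 56.5 kb past the start of Irf8 (chr8:120792622-120793178) had scaled pileups of 116 and 101 in DC, 110 and 108 in DE and 147 and 123 in WT libraries, with the WT libraries above the variants and no difference past the test (log2 -0.31 for both). A member 37.5 kb past the start of Cebpa (chr7:35156348-35157167), at the place of its known myeloid enhancer and nearest to the amino acid transporter gene Slc7a10, had 72.9 and 58.3 in DC, 52.7 and 63.4 in DE and 63.6 and 62.0 in WT libraries. It did not separate the genotypes, with a log2 difference of 0.05 for DC and -0.12 for DE.

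Between genotypes, most members had a similar scaled pileup and a minority differed in DC. In DC against WT, 269 members rose and 116 fell at an adjusted p under 0.05, which is 3.66% and 1.58% of members, beside 3.15% higher and 1.17% lower over all 23480 regions tested (limma with batch as a term, Benjamini-Hochberg over all regions). In DE against WT, 99 rose and 23 fell, which is 1.35% and 0.313% of members, beside 1.12% and 0.264% over all regions. In DC against DE none rose and 1 fell, beside 0.00852% and 0.0213% over all regions. There 682 members had an unadjusted p under 0.05 (limma), beside 1925 of all 23480 regions. The shares of members were near those of all regions, and gene-end regions had the lowest, with 1.01% higher and 0.52% lower in DC. Since every member had to be called in all 6 libraries, sites lost outright in a genotype are not among them.

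Those counts rested on the batch term and on the scaling. Without the replicate block no member was called in any comparison. In DC against WT, 708 of the 7359 members had an unadjusted p under 0.05 (limma), beside 1876 of all 23480 regions. The counts were 385 and 1144 in DE against WT, and 203 and 557 in DC against DE. With the libraries scaled by their background floors, the median of all regions moved by 0.84 on the log2 scale in DC against WT and by 0.55 in DE against WT. In DC 248 members then rose and 0 fell, and in DE 3 rose and 0 fell, so the falls are relative to the median region. The shares that rose were 3.37% of members in DC, beside 2.88% of all regions, and 0.0408% in DE, beside 0.0256%. Without the DC library of batch 2, 55 rose and 18 fell in DC, and without that of batch 1 the counts were 63 and 27. Without the WT library of batch 2, 106 rose and 22 fell in DC, and without that of batch 1, 212 and 58. In DE, 30 rose and 2 fell without the WT library of batch 2, and the counts were 33 and 12 without the DE library of batch 2 and 53 and 11 without that of batch 1.

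The 269 members that rose in DC had a median scaled pileup of 72.2 in DC, 54.2 in DE and 28.8 in WT (each a mean of 2 libraries per region), and a median log2 difference of 1.25 in DC against WT and 0.87 in DE against WT. The 116 that fell in DC had 24.8 in DC, 35.1 in DE and 59.2 in WT, with median differences of -1.25 and -0.60. The 99 that rose in DE had 82.2 in DC, 75.3 in DE and 31.2 in WT. Both comparisons use the same WT libraries, so DC and DE values set side by side in this way are not independent. The 10th and 90th percentiles of the log2 difference over all members were -0.64 and 0.69 in DC against WT, -0.52 and 0.59 in DE against WT and -0.51 and 0.49 in DC against DE, and the median half-width of the 95% interval of a single member's difference was 0.68.

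**Figure D4:**
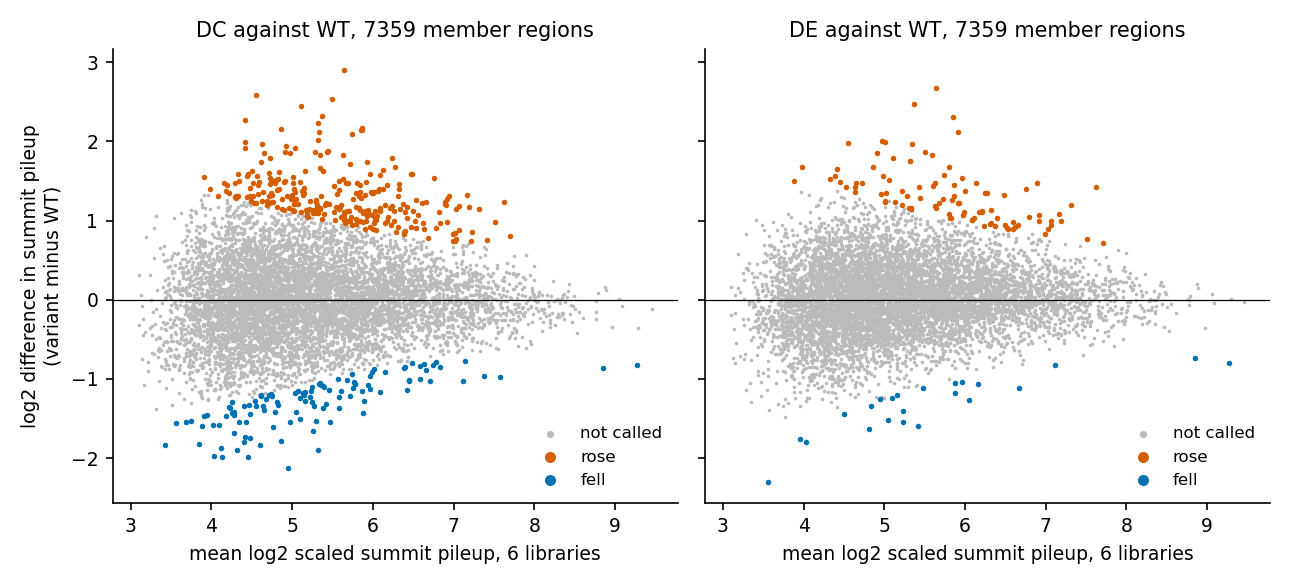
Log2 difference in scaled summit pileup (variant minus WT) against the mean log2 scaled pileup of the 6 libraries, for the 7359 members, in DC (left) and DE (right). Coloured points passed an adjusted p under 0.05: 269 rose and 116 fell in DC, 99 rose and 23 fell in DE, and most points are grey.

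The members with the smallest p that rose in DC lay near Prl2c3, a prolactin family hormone, Cldn16, a tight junction claudin, Stambpl1, a deubiquitinase, Map10, a microtubule-associated protein, 1700017B05Rik, Arhgap21, a GTPase-activating protein, Cyp26a1, which breaks down retinoic acid, and Aqp11, a water channel. The region 72.6 kb downstream of Prl2c3 (chr13:12717918-12718501) had scaled pileups of 95.1 and 112 in DC, 102 and 75.9 in DE and 15.1 and 12.6 in WT libraries. The 4 libraries of the variants lay far above both WT libraries, and the log2 difference was 2.90 (SE 0.30) in DC against WT (adjusted p = 2.7e-11) and 2.67 in DE against WT (adjusted p = 1.1e-09), on limma's scale. The region 15.3 kb upstream of Cldn16 (chr16:26447637-26448006) had 97.6 and 92.0 in DC, 59.4 and 60.0 in DE and 18.2 and 14.7 in WT libraries. Here DC lay above DE and both above WT, with differences of 2.54 (SE 0.31) and 1.87. All 8 passed the test in DC without any 1 library; log2 differences ran between 2.09 and 2.90.

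In DE the 8 members with the smallest p that rose again included those at Prl2c3, Map10, Arhgap21 and Cldn16, beside regions near 2310022B05Rik, Dynlt1b, a dynein light chain, Ccdc83 and Ugt1a10, a glucuronosyltransferase. The region 98.8 kb upstream of Arhgap21 (chr2:21067314-21067724) had scaled pileups of 77.8 and 59.8 in DC, 67.8 and 84.9 in DE and 16.1 and 11.6 in WT libraries, with log2 differences of 2.32 in DC and 2.47 in DE. The region 22.4 kb from Dynlt1b (chr17:6406869-6407323) was strong in every library, with 258 and 244 in DC, 272 and 301 in DE and 111 and 103 in WT libraries. Its variants lay above WT with no overlap, by 1.23 in DC (adjusted p = 1.9e-05) and 1.42 in DE (adjusted p = 2e-06, limma). The Ccdc83 call in DE was lost without the WT library of batch 2 (adjusted p = 0.085); the other 7 passed without any 1 library.

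**Figure D5:**
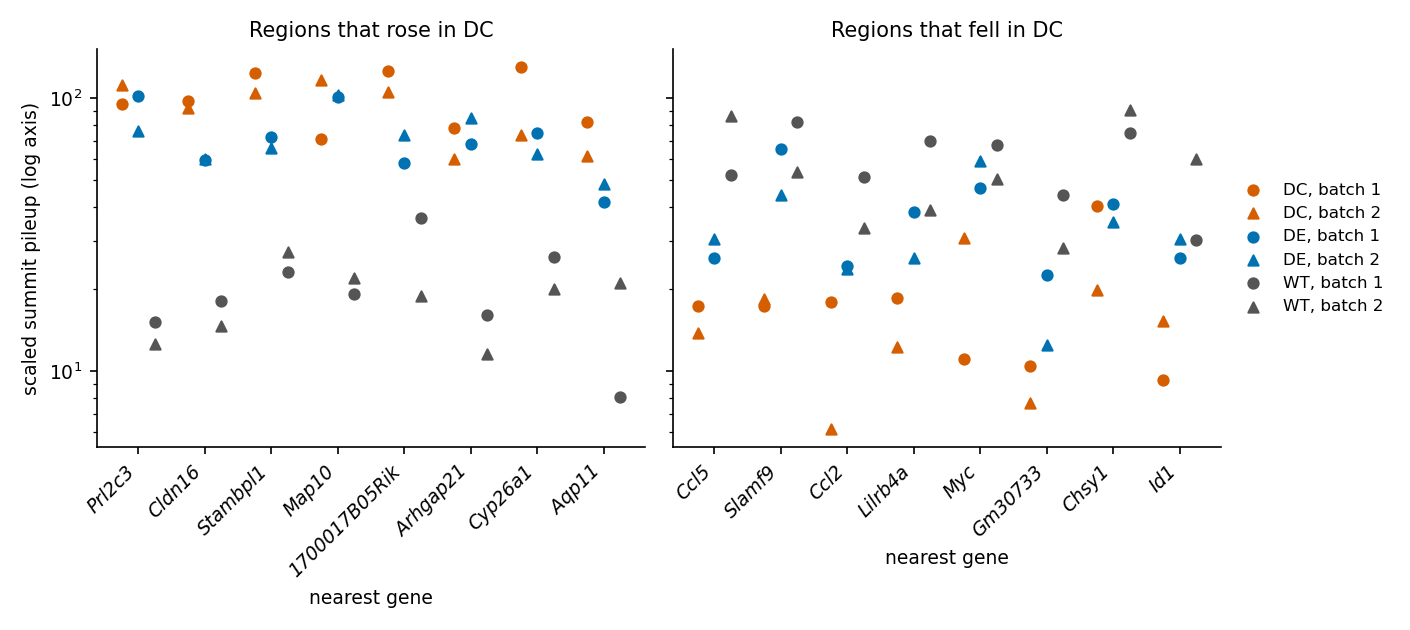
Scaled summit pileup (log axis) of the 8 members with the smallest p that rose and the 8 that fell in DC against WT, by nearest gene; colours give the genotype (DC, DE, WT from left to right) and symbols the batch. Both DC libraries lie above both WT libraries at every region on the left and below them at every region on the right.

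The 8 members with the smallest p that fell in DC included those nearest to the chemokine genes Ccl5 and Ccl2, to Slamf9, a SLAM family receptor gene, and to Lilrb4a, an inhibitory leukocyte receptor gene. The others lay near Myc, the growth-promoting transcription factor gene, Gm30733, Chsy1, a chondroitin synthase gene, and Id1, an inhibitor of E proteins. The Ccl2 member had a summit pileup before scaling of only 4 in the DC library of batch 2, the smallest of any member there. The region 4.43 kb from Ccl5 (chr11:83534704-83535193) had scaled pileups of 17.3 and 13.8 in DC, 25.9 and 30.6 in DE and 52.5 and 86.1 in WT libraries. DC was lowest and WT highest in both batches, and the log2 difference was -2.12 (SE 0.36) in DC against WT (adjusted p = 1.7e-05, limma) and -1.26 in DE against WT (adjusted p = 0.048). The DE call was lost without either DE library (adjusted p = 0.25 without batch 1 and 0.22 without batch 2), either WT library (0.057 and 0.58) or the DC library of batch 1 (0.053).

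The region 2.44 kb upstream of Slamf9 (chr1:172455999-172456269) was the member that differed between the variants. It had scaled pileups of 17.3 and 18.4 in DC, 65.2 and 44.2 in DE and 81.7 and 53.6 in WT libraries. DC lay below both other genotypes, by 1.59 on the log2 scale against DE (log2 -1.59, 95% half-width 0.64, adjusted p = 0.032) and by 1.89 against WT (log2 -1.89, adjusted p = 2.5e-05). The difference between DC and DE was lost without the DC library of batch 1 (adjusted p = 0.76) or batch 2 (0.057) and without the DE library of batch 1 (0.45) or batch 2 (0.084), all by limma. It was also lost without the batch term, with background floor scaling, with the authors' fold and without limma's trend. The call against WT held without any 1 library. The region 25.05 kb from Lilrb4a had 18.5 and 12.3 in DC, 38.5 and 26.05 in DE and 69.6 and 38.9 in WT libraries, with a log2 difference of -1.79 in DC that held without any 1 library and -0.72 in DE (adjusted p = 0.41).

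A region 67.3 kb from Myc (chr15:62057475-62057830) had scaled pileups of 11.1 and 30.7 in DC, 46.8 and 58.9 in DE and 67.6 and 50.4 in WT libraries, a log2 difference of -1.66 in DC (adjusted p = 0.00064) that was lost without the batch 1 library of DC (0.41) or of WT (0.25). The stronger Myc member, 1.78 kb from the gene, had 221 and 182 in DC, 212 and 191 in DE and 213 and 160 in WT libraries and did not separate the genotypes. The Ccl2 call was lost without the DC library of batch 2 (adjusted p = 0.21), the Id1 call without the WT library of batch 2 (0.11), the Gm30733 call without the DC library of batch 1 (0.059), and the Chsy1 call without the batch 2 library of DC (0.32) or of WT (0.22).

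The members that fell in DE were led by Il1a, the interleukin-1α gene, Cstad, Nceh1, a cholesterol ester hydrolase gene, Nr1d1, the clock repressor gene, Ado, Eya3, a phosphatase and coactivator gene, Ccr7, the lymph node homing receptor gene, and Xirp1. The region 1.56 kb upstream of Il1a (chr2:129311600-129311889) had scaled pileups of 10.5 and 9.20 in DC, 7.53 and 4.53 in DE and 27.2 and 30.5 in WT libraries. Its DE values lay near the lowest of any member, where the smallest pileups before scaling were 8 and 4 in the DE libraries. Both variants lay below WT, with log2 differences of -1.55 in DC (adjusted p = 0.021) and -2.30 in DE (adjusted p = 0.00039, limma). The DE call was lost without the batch 2 library of DE (0.098) or of WT (0.15), and the DC call without the DC library of batch 1 (0.19) or 2 (0.17) or the WT library of batch 1 (0.067) or 2 (0.42). The Ccr7 region, 10.02 kb from the gene, had 35.8 and 16.9 in DC, 32.6 and 15.9 in DE and 65.6 and 65.1 in WT libraries, differences of -1.41 (adjusted p = 0.0066) and -1.52 (adjusted p = 0.0062). Its DE call was lost without the batch 2 library of DE (0.17) or of WT (0.45), and its DC call without the DC library of batch 1 (0.051) or 2 (0.31) or the WT library of batch 2 (0.45). Each of the other 6 DE calls was also lost without at least 1 library.

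Among the neutrophil and monocyte genes, 6 of 63 members rose and 2 fell in DC, and 4 rose and 0 fell in DE, beside 3.15% higher and 1.17% lower over all regions in DC and 1.12% and 0.264% in DE. The median log2 difference was -0.01 in DC and 0.04 in DE, against -0.01 and 0.02 over all members. The region 10.2 kb downstream of S100a9, a calprotectin subunit of granulocytes (chr3:90682032-90682927), had scaled pileups of 136 and 118 in DC, 81.1 and 108 in DE and 31.3 and 43.1 in WT libraries. All variant libraries lay above both WT libraries, by 1.79 in DC (adjusted p = 8.4e-07, held without any 1 library) and 1.35 in DE (adjusted p = 0.00062, lost without the DE library of batch 2 at 0.064). A second region 5.64 kb downstream of S100a9 rose by 1.18 in DC (adjusted p = 0.00026, lost without the DC library of batch 2 at 0.36) and by 1.00 in DE. That DE call, at an adjusted p of 0.0063, was lost without the DE library of batch 1 (0.20) or the WT library of batch 2 (0.23).

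The region 5.60 kb upstream of Ly6c2, the monocyte surface antigen gene (chr15:75117549-75117785), had scaled pileups of 62.4 and 46.0 in DC, 46.0 and 31.7 in DE and 17.2 and 8.405 in WT libraries. A neighbour 6.71 kb upstream rose by 1.23 in DC (adjusted p = 0.036, lost without the DC library of batch 1 at 0.31 or 2 at 0.30 or the WT library of batch 1 at 0.46). At the first, the variants lay above WT, by 2.16 in DC (adjusted p = 1.5e-05, held without any 1 library) and 1.67 in DE (adjusted p = 0.0028). The DE call was lost without the DE library of batch 1 (0.064) or 2 (0.12) or the WT library of batch 2 (0.13). Ly6 genes have close paralogs in a cluster, and fragments shared between copies could not be told apart. The region 11.6 kb upstream of Itgam, the CD11b gene, had 104 and 59.8 in DC, 114 and 72.5 in DE and 169 and 151 in WT libraries, a log2 difference of -1.02 in DC (adjusted p = 0.004) that was lost without the DC library of batch 1 (0.071) or 2 (0.35) or the WT library of batch 2 (0.31).

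At Irf8, a member 41.0 kb past the gene's start (chr8:120777225-120777512) rose in both variants. This is the place of a known Irf8 enhancer at which E proteins act in dendritic progenitors. It had scaled pileups of 48.8 and 44.5 in DC, 69.4 and 38.5 in DE and 12.1 and 13.7 in WT libraries. Every variant library lay above both WT libraries, with log2 differences of 1.86 in DC (SE 0.35, adjusted p = 0.0002) and 2.01 in DE (adjusted p = 0.00013), by limma. The DC call was lost without the DC library of batch 2 (adjusted p = 0.053) and the DE call without the DE library of batch 1 (0.13). The other Irf8 members, including the stronger one 56.5 kb past the start, did not pass the test.

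At the remaining landmark genes, the strongest Cebpe member, 3.93 kb from the gene (chr14:54705592-54707275), had scaled pileups of 141 and 205 in DC, 150 and 121 in DE and 84.8 and 106 in WT libraries. It rose by 0.85 in DC (adjusted p = 0.016), a call lost without the DC library of batch 1 (0.095) or 2 (0.61) or the WT library of batch 1 (0.18) or 2 (0.087). A member 2.45 kb downstream of Batf3 had 28.4 and 23.0 in DC, 55.2 and 32.8 in DE and 59.5 and 73.5 in WT libraries and fell in DC (log2 -1.37, adjusted p = 0.0036, lost without the DC library of batch 1 at 0.093 or 2 at 0.13 or the WT library of batch 2 at 0.33). The other 3 Batf3 members did not pass the test. Of the 9 Cebpb members 1, at 85.1 kb, fell in DC (log2 -1.01, adjusted p = 0.008), lost without the batch 2 library of DC (0.53) or of WT (0.44). No member near Zeb2, Id2, Nfil3, Gfi1, Spi1, Csf3r or Cebpa passed the test in any comparison.

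Among members near chemokine receptor genes, a region each at Ccr9, Cxcr4 and Cxcr2 rose in DC, whereas the Ccr7 region given above fell. Cxcr4 was nearest to 8 members, and no other of them passed the test. The one with the highest median fold (42.8) had a log2 difference of 0.01 in DC against WT (adjusted p = 0.99, limma). None of the 9 members nearest to Ccr1 passed the test. The region 12.6 kb upstream of Ccr9, the gut homing receptor gene of pDC and T cells (chr9:123754397-123754813), had scaled pileups of 76.0 and 55.2 in DC, 34.3 and 29.4 in DE and 20.2 and 14.7 in WT libraries, with a log2 difference of 1.91 in DC (adjusted p = 7.1e-05, held without any 1 library) and 0.88 in DE (adjusted p = 0.22). Summit folds at the Ccr9 region were 58.7 and 14.1 in DC, 16.6 and 9.61 in DE and 1.98 and 5.94 in WT libraries. It was 1 of the 13 members with a fold under 2 in any library. The region 17.7 kb downstream of Cxcr4, the marrow retention receptor gene (chr1:128569964-128571078), had scaled pileups of 140 and 179 in DC, 146 and 142 in DE and 40.4 and 74.6 in WT libraries. The variants lay above WT without overlap, by 1.53 in DC (adjusted p = 4.7e-06, held without any 1 library) and 1.39 in DE (adjusted p = 0.0001, limma). The DE call was lost without the batch 1 library of DE (0.059) or of WT (0.058). The region 2.54 kb upstream of Cxcr2, the neutrophil chemokine receptor gene, had 65.5 and 101 in DC, 36.0 and 68.0 in DE and 44.4 and 39.9 in WT libraries. It rose by 0.95 in DC (adjusted p = 0.041), a call lost without the DC library of batch 1 (0.25) or 2 (0.51) or the WT library of batch 2 (0.66).

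Over the lists, the counts of called members were small, beside 3.15% higher and 1.17% lower over all regions in DC and 1.12% and 0.264% in DE. In the chemokine and cytokine list 0 of 63 members rose and 3 fell in DC, at Ccl2, Ccl5 and Il1a, and 0 rose and 2 fell in DE, with median log2 differences of -0.14 and -0.01. The receptor list had 2 of 56 higher and 1 lower in DC, the cDC1 list 2 of 21 higher and 1 lower, the cDC2 list 2 of 14 higher and 0 lower, the pDC list 1 of 9 higher and 0 lower, and the AP-1 and ATF list 1 of 50 higher and 1 lower. Stem and progenitor genes had 0 of 36 higher and 1 lower, and B lymphoid genes 0 of 6 higher and 1 lower. None of the members of the T and NK, erythroid and megakaryocyte, mast cell, housekeeping and non-haematopoietic lists passed the test in DC or DE against WT.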

How the data were processed

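C/EBPα CUT&RUN libraries of 3 genotypes (2 each) were used. The authors deposited 1 peak list per library, called at a q of 0.1 per the file names; each peak's summit fold is the authors' ratio to a local background with a pseudocount, and its -log10 p and -log10 q values were deposited beside it. Per the submitters' processing notes, Trimmomatic, Bowtie2, SAMtools, MACS2 2.2.9.1, HOMER and mm10 were used; their settings, the control of the peak calls and whether duplicates were removed are not given in the sources used here. A pipeline with other duplicate or control handling would change pileups and backgrounds, and the depth per library is unknown.

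The fold and p-value of a peak give its summit pileup and background under a Poisson model, and both were solved for with a whole pileup (tolerance 5% of a step). Peaks were merged at 1 bp, and the highest pileup of a library in a region was used. Log2 pileups were scaled per library by its median deviation from the region means, taken over the 23480 regions shared by every list, and fitted with limma 3.58.1 (R 4.3.3; mean-variance trend, genotype and batch, all 6 libraries), with Benjamini-Hochberg adjustment at 0.05 over all 23480. The labels give the batch, so libraries of a batch were paired; the correlations of their deviations from the genotype means were 0.38 for DC and DE, 0.55 for DC and WT and 0.41 for DE and WT. On simulated data, 199 of 200 regions changed 4-fold in DC against WT and 8 of the others were called. The simulated batch shift was the same for every region and was taken out by the scaling, so the batch term was not tried. A 4-fold change is also larger than the median log2 difference of 1.25 among members that rose in DC. The simulation therefore does not show how reliable the real calls are. With 2 libraries against 2, an exact permutation test cannot go below p = 0.333, so none was used.

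Gene positions and promoter windows came from RefSeq tables of GRCm38.p6. For lack of a genome, motifs could not be searched around every summit as intended, and the search in promoter windows was added after the data were seen. Regions are named by rule: the 10 strongest by their worst rank, up to 8 with the smallest p each way per comparison, up to 3 per gene list, those of landmark genes, of the 8 genes with most members, the 5 least and 5 most variable, and those at the limits (a few of these are not reported here); some called members of listed genes are named too, after their values were seen. The members and lists were chosen with earlier results of these data known. Python 3.11.15 did the other steps.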

Additional observations from a re-analysis of the deposited data

Results flagged for a closer look

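The region 2.44 kb upstream of Slamf9 (chr1:172455999-172456269) stood out because the effects of the variants differed there by a test of the difference itself. The log2 difference in scaled pileup was -1.89 in DC against WT and -0.30 in DE against WT, and DC minus DE came to -1.59 (SE 0.32, limma with batch, adjusted p = 0.032 over all 23480 regions), with DC below DE in both batches. It was the only one of the 7359 members past that test, and the difference was lost without either DC library or either DE library, as given above. No member passed the test between DC and DE without the replicate block, with background floor scaling, with the authors' fold as the measure or with limma without the trend.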

How the results depend on the processing

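Counts below are members higher and lower. Without the replicate block they were 0 and 0 in DC against WT, DE against WT and DC against DE, and all 76 named calls were lost. With background floor scaling they were 248 and 0 in DC, 3 and 0 in DE and 0 and 0 between the variants; with the authors' fold as the measure 85 and 24, 22 and 1, and 0 and 0; with limma without the trend 103 and 42, 6 and 1, and 0 and 0; with quantile normalization 286 and 129, 120 and 34, and 1 and 3. A pileup of 10 or more in every library left 226 and 89, 85 and 23, and 0 and 1. Leaving out each library in turn gave 55 to 329 and 18 to 153 in DC, 30 to 75 and 2 to 18 in DE, and 0 to 4 and 0 to 7 between the variants; 24 of the 76 named calls held without any 1 library. Of the 76, 50 were lost with background floor scaling, 43 without the trend and 39 with the authors' fold. No named call changed direction under these alternatives. The number of members was 6048 to 8112 under stricter q values, other distance limits and overlaps and without each library, against 7359. By the authors' fold, members differed from gene-end regions by 0.30 and from gene-desert regions by 0.0117 in log2 median, against -0.25 and 0.09 by pileup. Counting genes with a member within 20 kb of either end, an alternative chosen after seeing the data, gave 0 non-haematopoietic genes and 21.1% of all genes. It gave 33.3% for cDC1 (46.7% by nearest gene), 35.7% for pDC (42.9%), 33.3% for cDC2 (33.3%) and 41.7% for the mast cell list (33.3%), which then lay above the dendritic lists. The causes were not tested. The motif search within 100 bp in place of 200 bp around the summits was not run. Depth is unknown, and the median 95% half-width of 0.68 limits what a single member can show.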
